A study of Mus musculus with 4 samples.

Results

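RNA from 9 genes of the FGF-ERK pathway was compared between embryonic stem cells with and without small interfering RNA (siRNA) against Kdm5b. They are the ligand gene Fgf4, the receptor genes Fgfr1 and Fgfr2, the inhibitor genes Spry2, Spry4, Spred1 and Dusp6, and the transcription factor genes Etv4 and Etv5. They were found by symbol among the 23697 loci of the deposited table, and each of the 9 matched exactly 1 locus. The cells were of the WW6 line, mouse embryonic stem cells of mixed C57/B6J, 129/Sv and SJL background. They grew without feeder cells in serum and leukemia inhibitory factor, and the growth protocol in the labels names no MEK inhibitor. Both groups went through the same lipid transfection. The 2 control libraries (A and B) came from cells given siRNA against GFP, and the 2 knockdown libraries (A and B) from cells given siRNA against Kdm5b, a demethylase of lysine 4 of histone H3. The time from transfection to harvest is not given in the sources used here. Whether A and B grew as separate cultures is not in the labels, so the spread between them, and every p-value, may be technical.

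Fibroblast growth factor 4 is secreted by naive stem cells and binds receptor tyrosine kinases on the same and neighbouring cells, with heparan sulfate as a cofactor. The receptors act through FRS2, GRB2 and SOS on RAS, and from there through RAF and MEK on the kinase ERK. ERK signalling in turn switches on genes that damp it, among them sprouty and SPRED proteins and the ERK phosphatase DUSP6, and the ETS transcription factors ETV4 and ETV5, so that RNA of these genes is widely read as a gauge of pathway activity. In the early embryo FGF4 directs inner cell mass cells towards primitive endoderm, and in culture it prepares stem cells to leave self-renewal.

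Levels are in FPKM (fragments counted per kilobase of RNA and scaled to library depth), a unit that allows genes to be ordered within a library. FPKM carries no totals, so depth was estimated from the steps between low values; these put knockdown A at 76.5% of the depth of control B, knockdown B at 97.9% and control A at 103%. Knockdown A listed 11953 loci at 0, against 8131 to 8609 in the other 3 libraries. Kdm5b itself had 99.7 and 145 FPKM in the controls, against 22.7 and 31.1 FPKM in the knockdown pair, so 22.0% of the mean control level was left. With 2 libraries a group this difference, a log2 fold change of -2.14 (standard error 0.30, unadjusted p = 0.00033), was itself not called over all loci (limma adjusted p = 0.562), so a gene that misses the threshold here may still differ. Of 8 stem cell markers all 8 were tested, led by Pou5f1 at 767 to 1259 FPKM, and their summed level was 2022 and 2514 FPKM in the controls, against 2782 and 2164 FPKM in the knockdown pair. Both knockdown libraries lay below both controls in 3 of the 8 (Esrrb, Tfcp2l1 and Klf4) and above both in 0, beside 16.9% and 15% of all loci tested. Klf4, a transcription factor of self-renewal named after its values were seen, had 46.5 and 55.4 FPKM in the controls, against 29.3 and 26.8 FPKM in the knockdown pair, with a limma adjusted p of 0.918 for a log2 fold change of -0.84 ± 0.24 (standard error). Markers of primitive endoderm summed to 11.9 and 17.0 FPKM in the controls, against 3.64 and 3.24 FPKM in the knockdown pair, over 8 genes. Of these 4 were tested, and 3 of the 4 (Gata4, Dab2 and Cubn) had both knockdown libraries below both controls, beside 16.9% of all loci tested. Cubn made up the largest part of the control sums, at 4.23 and 7.39 FPKM, against 0.272 and 0.338 FPKM in the knockdown pair (limma adjusted p = 0.918). No other gene of this list exceeded 3.16 FPKM in any library. In knockdown A, Gata4, Sox17, Sox7, Foxa2 and Dab2 were listed at 0, Foxa2 also in control A and knockdown B, while Gata6 was highest of the 4 libraries there, at 2.32 FPKM, and Pdgfra lay within the control range. Fibroblast markers summed to 9.88 and 5.84 FPKM in the controls, against 0.258 and 2.87 FPKM in the knockdown pair over 7 genes. Of these 3 were tested, and 2 of the 3 (Thy1 and Acta2) had both knockdown libraries below both controls, beside 16.9% of all loci tested. Col3a1 and Postn were at 0 in both knockdown libraries. Postn was also at 0 in control B, and Col1a1 was at 0 in control B and knockdown A and highest in knockdown B. Trophoblast markers summed to 40.7 and 13.5 FPKM in the controls, against 3.48 and 14.2 FPKM in the knockdown pair over 6 genes. Most of it came from the keratin gene Krt18, the 1 tested gene, at 38.5 and 12.4 FPKM in the controls, against 3.28 and 12.2 FPKM in the knockdown pair. Both its knockdown values lay below both controls, as at 16.9% of all loci tested, knockdown B by little (limma adjusted p = 0.918). Elf5 was at 0 in both knockdown libraries and control A, and Cdx2 was at 0 in control A and knockdown A and highest in knockdown B. Of 7 epiblast and germ layer markers 6 were tested, and 1, Dnmt3b, lay above both controls in both knockdown libraries, beside 15% of all loci tested. The list summed to 69.3 and 140 FPKM in the controls, against 132 and 129 FPKM in the knockdown pair. The part of such cells in the values below was not tested, and in bulk RNA fewer cells of a type and less RNA per cell cannot be told apart.

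Promoter sequences of the ligand gene Fgf4 and of Spry2 and Dusp6, the inhibitor genes whose differences are described most closely, are shown. The RefSeq start of each is also the start of a GENCODE transcript. They come from RefSeq on GRCm38.p6, a newer build than the mm9 coordinates of the deposited table, and cover the 250 bases before the start, 5′ to 3′ on the gene's strand. Fgf4 lies at chr7:144861136-144861385 on the plus strand, Spry2 at chr14:105896820-105897069 on the minus strand and Dusp6 at chr10:99262981-99263230 on the plus strand. Capitals mark matches, on either strand, to the GC box GGGCGG or the CCAAT box CCAAT, which reads ATTGG on the other strand.
Fgf4: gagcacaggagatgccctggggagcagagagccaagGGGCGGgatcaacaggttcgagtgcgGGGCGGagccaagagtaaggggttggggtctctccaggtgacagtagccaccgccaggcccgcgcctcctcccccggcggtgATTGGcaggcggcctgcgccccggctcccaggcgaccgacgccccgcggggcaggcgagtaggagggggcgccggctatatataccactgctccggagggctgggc
Spry2: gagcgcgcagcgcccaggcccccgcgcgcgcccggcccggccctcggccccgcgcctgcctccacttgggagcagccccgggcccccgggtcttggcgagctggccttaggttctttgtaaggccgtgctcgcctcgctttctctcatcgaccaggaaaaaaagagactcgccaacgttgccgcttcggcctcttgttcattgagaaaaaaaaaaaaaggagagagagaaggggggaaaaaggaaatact
Dusp6: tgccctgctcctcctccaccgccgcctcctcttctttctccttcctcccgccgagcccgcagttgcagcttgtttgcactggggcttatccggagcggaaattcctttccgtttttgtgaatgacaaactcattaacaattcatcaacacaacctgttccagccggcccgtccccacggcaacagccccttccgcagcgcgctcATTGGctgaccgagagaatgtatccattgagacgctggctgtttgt
The Fgf4 window is 71.2% G and C, and the Spry2 and Dusp6 windows are 62.4% and 56.4%, against a median of 52.4% over 32851 promoter windows of the same length. The ratio of observed to expected CpG pairs is 0.68, 0.95 and 0.86 in that order, against a median of 0.37, so all 3 are richer in CpG than the median promoter. Fgf4 holds 2 GC boxes, which begin 214 and 188 bases before the start, and 1 CCAAT box on the opposite strand at 106 bases. Dusp6 holds 1 CCAAT box on the opposite strand, 46 bases before the start, and Spry2 holds neither motif. Across all windows 32.7% hold the GC box and 33.8% the CCAAT box. RefSeq windows were used for 6 of the 9 genes, without Fgfr1, Spry4 and Etv4. Counting either of the 2 windows of Etv5, 3 of the 6 hold a GC box and 3 a CCAAT box. The starts of the Fgfr2 and Spred1 windows, and of 1 of those of Etv5, are not the start of a GENCODE transcript. Other exact letters were searched on both strands and are in 0 of the 6. They are CCGGAA, a long form of the ETS site (in 12.0% of all windows), and the cyclic AMP response element TGACGTCA (1.55%). The octamer ATGCAAAT (1.60%) and TATAAA, a form of the TATA box (12.4%), complete the list. Variants of these letters were not counted. The shorter ETS core GGAA is in the Spry2 and Dusp6 windows, and TATATATA is in the Fgf4 window. No motif letters overlap another match in the 3 windows shown.

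The 9 genes spanned a wide range of levels. Etv5 was the most abundant by mean (90.2 FPKM), then Fgf4 (73.7), Spry2 (49.0), Dusp6 (46.1), Spred1 (31.2), Etv4 (29.7), Spry4 (23.9), Fgfr1 (10.0) and Fgfr2 (4.93). Etv5 and Fgf4 stood at the 91.5th and 89.6th percentile of the 11784 loci whose mean reached 1 FPKM, and Fgfr1 and Fgfr2 at the 44.1st and 26.5th. The ranges over the 4 libraries overlapped between neighbours in this order from Etv5 down to Spry4. They did not overlap between Spry4 and Fgfr1 or between Fgfr1 and Fgfr2. The receptors were thus the 2 lowest of the 9 in each of the 4 libraries, and Etv5 and Fgf4 the 2 highest. Knockdown A ordered the middle of the set differently: Etv4 was the third highest there and Spry2 the seventh, while in the other 3 libraries Etv4 was the sixth and Spry2 the third or the fourth.

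**Figure D1:**
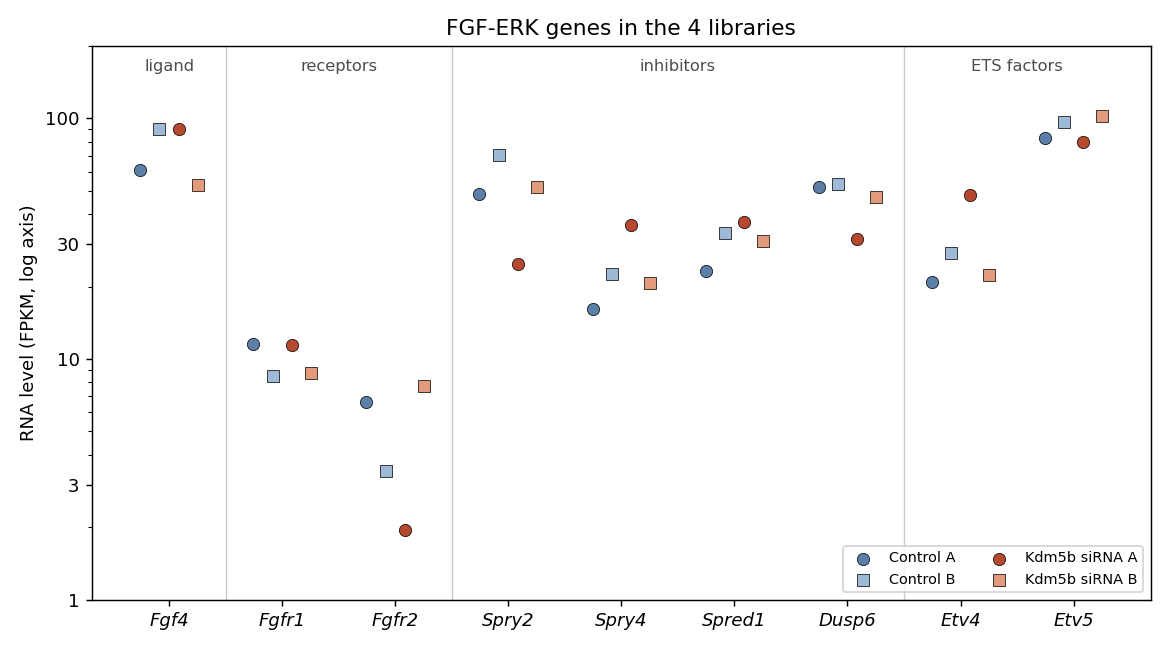
RNA level of the 9 genes in each of the 4 libraries, in FPKM on a log axis, with 1 point per library and genes grouped by role; blue points are controls and red points Kdm5b knockdown. The ranges of the 2 groups overlap for all genes but Dusp6, where both knockdown values (31.7 and 47.1) lie below both control values (51.9 and 53.6).

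The comparison of knockdown with control asked whether losing most Kdm5b RNA went with another level of these genes. Each of the 9 passed the filter, a mean of 1 FPKM or more over the libraries, and was tested with limma on log2(FPKM + 1). Of the 9, 0 passed an adjusted p under 0.05 and 0 had an unadjusted p under 0.05, and of all 11784 loci tested 0.0339% were called, 4 of them, with 290 at an unadjusted p under 0.05. On the fitted scale 5 genes lay above 0 and 4 below, although 2 of the 5, Fgfr1 and Etv5 at 0.01 each, moved to -0.057 and -0.067 with upper-quartile scaling (Etv5 also to -0.016 with quantile normalization), with a median log2 fold change of 0.01 beside -0.03 for all loci tested. Both knockdown libraries lay below both controls in 1 of the 9, Dusp6, and above both in 0 of the 9. Over all loci tested the shares were 16.9% below and 15% above, so the count of 1 was no higher than the background gives. Taken alone, knockdown B lay outside the control range in 4 of the 9 genes (Fgf4 and Dusp6 below, Fgfr2 and Etv5 above) and knockdown A in 7, beside 58.6% and 79.1% of all loci tested.

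Fgf4 (NM_010202; mm9 chromosome 7, 152047290 to 152051148), the stem cell ligand, had 60.9 and 90.7 FPKM in the controls, A then B throughout, against 90.1 and 53.1 FPKM in the knockdown pair. Each group held 1 high and 1 low library, so the groups overlapped almost entirely. The means were 75.8 ± 21.0 FPKM in controls and 71.6 ± 26.2 FPKM in knockdown (SD, n = 2 each), a log2 fold change, knockdown over control, of -0.10 (standard error 0.34, 95% interval -0.94 to 0.74, limma adjusted p = 0.970). In fragments, by the estimated steps, the Fgf4 values rest on about 636 to 1102 fragments per library.

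Fgfr1 (NM_001079908, NM_001079909 and NM_010206; mm9 chromosome 8, 26629230 to 26686190), the receptor known to carry most FGF signalling in stem cells, stood at 11.5 and 8.50 FPKM in the controls, against 11.5 and 8.72 FPKM in the knockdown pair. The 2 groups held nearly the same pair of values, with means of 10.0 ± 2.11 and 10.1 ± 1.94 FPKM (SD, n = 2 each). The log2 fold change was 0.01 (standard error 0.34, 95% interval -0.81 to 0.84). Fgfr2 (NM_010207 and NM_201601; mm9 chromosome 7, 137305964 to 137410322), the receptor linked to primitive endoderm in the embryo, stood at 6.65 and 3.41 FPKM in the controls, against 1.95 and 7.71 FPKM in the knockdown pair. The knockdown libraries held both the lowest and the highest of the 4 values, which differ 3.96-fold, the widest range among the 9 genes. Its log2 fold change was -0.20, with the largest standard error of the set (0.63, 95% interval -1.74 to 1.35). In knockdown A the value stands for an estimated 23.1 fragments, against 53.0 to 118 in the other 3 libraries. Fgfr1 exceeded Fgfr2 in each library, by 1.73-fold and 2.49-fold in controls A and B and by 5.89-fold and 1.13-fold in knockdown A and B. The receptor balance thus differed more between the 2 knockdown libraries than between the 2 controls.

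Spry2 (NM_011897; mm9 chromosome 14, 106291163 to 106296036) encodes a sprouty protein, an inhibitor of receptor tyrosine kinase signalling upstream of ERK. It stood at 48.7 and 70.7 FPKM in the controls, against 24.8 and 51.7 FPKM in the knockdown pair. Knockdown A was the lowest library, while knockdown B lay between the controls, so the groups overlapped. The means were 59.7 ± 15.6 and 38.3 ± 19.0 FPKM (SD, n = 2 each), and the log2 fold change of -0.69 was the furthest from 0 among the 9 (standard error 0.40, 95% interval -1.67 to 0.28, limma adjusted p = 0.918). Dusp6 (NM_026268; mm9 chromosome 10, 98725864 to 98730123), the phosphatase that inactivates ERK in the cytoplasm, stood at 51.9 and 53.6 FPKM in the controls, against 31.7 and 47.1 FPKM in the knockdown pair. The controls lay close together and both knockdown libraries below them, knockdown B by little. The means were 52.7 ± 1.19 and 39.4 ± 10.9 FPKM (SD, n = 2 each), a log2 fold change, knockdown over control, of -0.44 (standard error 0.28, 95% interval -1.11 to 0.24, limma adjusted p = 0.918). The values rest on an estimated 270 to 597 fragments of Dusp6 and 154 to 573 of Spry2 per library.

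Spred1 (NM_001277256 and NM_033524; mm9 chromosome 2, 116946806 to 117008013) encodes an inhibitor that brings neurofibromin to the membrane, where it switches RAS off. It stood at 23.2 and 33.4 FPKM in the controls, against 37.0 and 31.0 FPKM in the knockdown pair. Control A was the lowest library and knockdown B lay between the controls. The log2 fold change was 0.27 (standard error 0.29, 95% interval -0.43 to 0.97). Spry4 (NM_011898; mm9 chromosome 18, 38745918 to 38760922), a second sprouty inhibitor, stood at 16.2 and 22.6 FPKM in the controls, against 35.9 and 20.8 FPKM in the knockdown pair. Knockdown A was the highest library, and knockdown B again lay between the controls. The log2 fold change was 0.49, the furthest above 0 among the 9 (standard error 0.36, 95% interval -0.38 to 1.37, limma adjusted p = 0.918). The 2 sprouty genes thus stood on opposite sides of 0. Spry2 exceeded Spry4 3.01-fold and 3.12-fold in controls A and B and 2.49-fold in knockdown B, and was at 0.69 times the level of Spry4 in knockdown A. The 4 inhibitor genes together summed to 140 and 180 FPKM in the controls, against 129 and 151 FPKM in the knockdown pair, which overlapped.

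Etv4 (NM_008815; mm9 chromosome 11, 101631055 to 101646624) encodes an ETS factor of the PEA3 group, whose RNA is a common readout of FGF signalling. It stood at 21.0 and 27.5 FPKM in the controls, against 48.0 and 22.3 FPKM in the knockdown pair. Knockdown A was the highest library and knockdown B lay between the controls. The means were 24.3 ± 4.64 and 35.2 ± 18.1 FPKM (SD, n = 2 each), a log2 fold change, knockdown over control, of 0.43 (standard error 0.41, 95% interval -0.56 to 1.42, limma adjusted p = 0.918). Etv5 (NM_023794; mm9 chromosome 16, 22381385 to 22439643), its close relative, stood at 82.5 and 96.8 FPKM in the controls, against 79.5 and 102 FPKM in the knockdown pair. Here the knockdown libraries held the lowest and the highest value, and the 4 differ by 1.28-fold, the narrowest range of the set. The log2 fold change was 0.01 (standard error 0.24, 95% interval -0.58 to 0.60). Etv5 exceeded Etv4 in each library, by 3.93-fold and 3.52-fold in the controls, 4.56-fold in knockdown B and 1.66-fold in knockdown A.

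**Figure D2:**
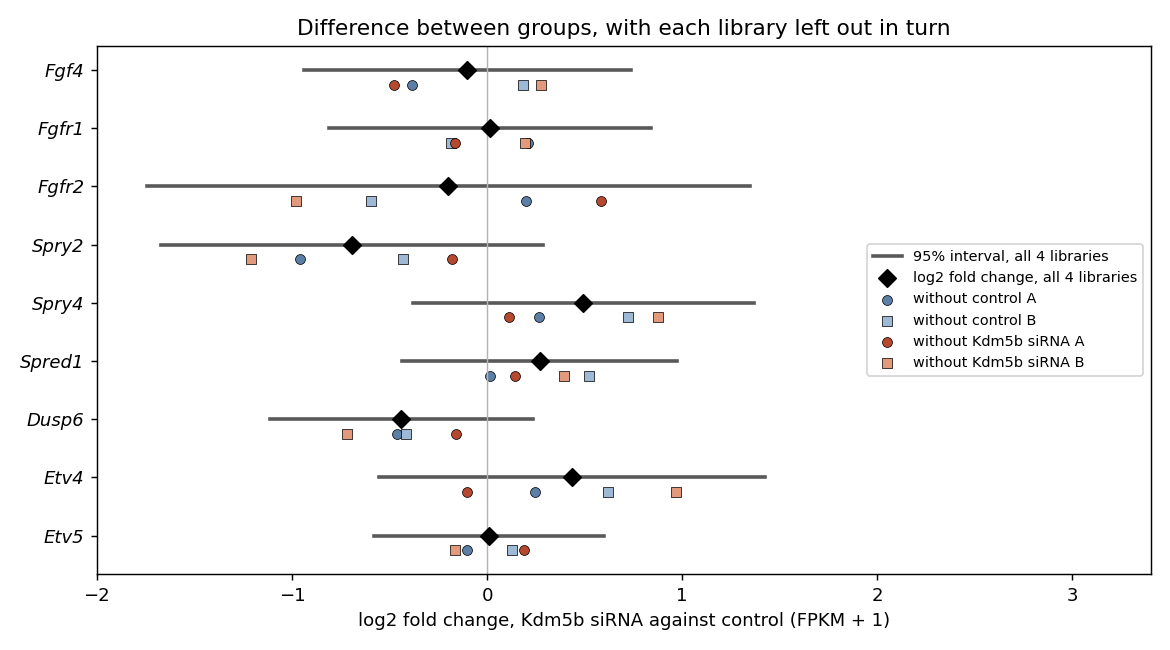
Log2 fold change of knockdown against control for each gene, on the log2(FPKM + 1) scale; diamonds and lines are the value and its 95% interval with all 4 libraries, and the coloured points below each line are the values with 1 library left out. All 9 intervals include 0, and without knockdown A the values of Spry2 and Dusp6 move to -0.18 and -0.16 and that of Etv4 to -0.10.

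The differences of Spry2, Dusp6, Spry4 and Etv4 shrank when knockdown A was left out. Without it the log2 fold changes were -0.18 for Spry2, -0.16 for Dusp6, 0.11 for Spry4, 0.15 for Spred1, 0.19 for Etv5 and -0.10 for Etv4, whose direction turned. Fgf4 stood at -0.48, Fgfr1 at -0.16 and Fgfr2 at 0.58 without that library. Without knockdown B they were -1.21 for Spry2, -0.72 for Dusp6, 0.87 for Spry4, 0.97 for Etv4 and -0.98 for Fgfr2. Leaving out a single library also turned the direction of Fgf4, Fgfr1, Fgfr2 and Etv5, while Spry2, Spry4, Spred1 and Dusp6 kept theirs in all 4 cases. The 95% intervals with all libraries reach below -1 for Fgfr2, Spry2 and Dusp6 and above 1 for Fgfr2, Spry4 and Etv4, so the data do not bound the difference of these 5 genes to under 2-fold on the log2(FPKM + 1) scale. The intervals of Fgf4, Fgfr1, Spred1 and Etv5 lie within 1 log2 unit of 0.

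Knockdown A was the lowest of the 4 libraries for 4 genes (Fgfr2, Spry2, Dusp6 and Etv5) and the highest for 3 (Spry4, Spred1 and Etv4). Among all loci tested it was the lowest at 38.4% and the highest at 33.2%, so its place at the edge was about as common in the set as over all loci. On the log2(FPKM + 1) scale 3 of the 9 genes (Fgfr2, Spry2 and Etv4) differed by at least 1 between the 2 knockdown libraries and 0 of the 9 between the 2 controls, beside 21.7% and 7.20% of all loci tested. The median absolute difference of the 9 genes was 0.75 between the knockdown libraries and 0.46 between the controls, beside 0.44 and 0.32 for all loci. Without knockdown A the ratio of the highest to the lowest value was at most 1.71 for each gene but Fgfr2 (2.26), and 1.14 for Dusp6. Knockdown A is the shallowest library and the one with the most loci at 0, as given above, and the part of depth in these values was not tested.

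**Figure D3:**
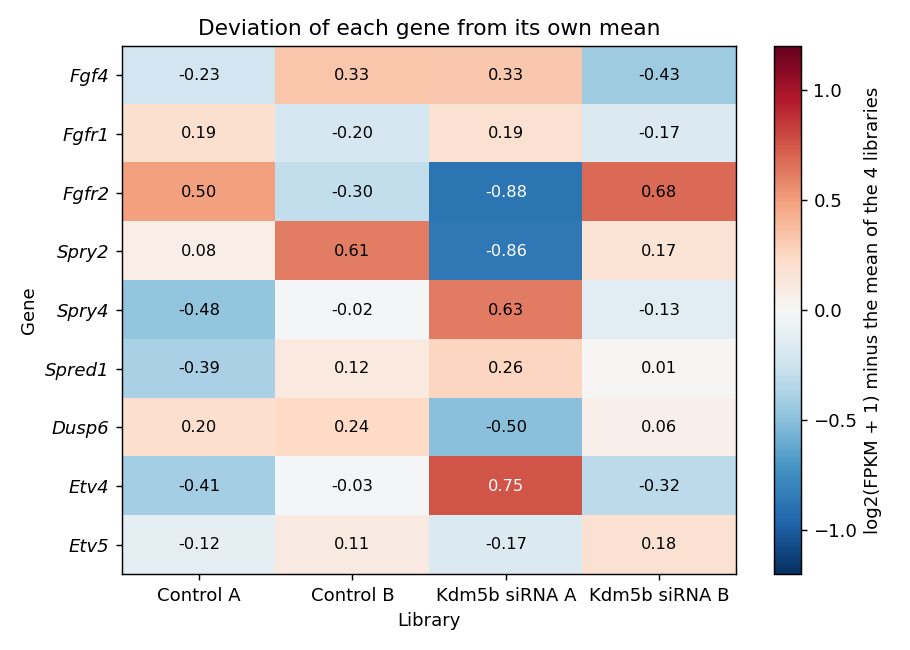
Deviation of each gene from its own mean in each library, in log2(FPKM + 1) units, with genes in rows and libraries in columns; red is above and blue below the gene's mean. The 3 deviations of largest size are in knockdown A, at -0.88 for Fgfr2, -0.86 for Spry2 and 0.75 for Etv4.

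Genes of the set did not share 1 profile over the libraries. Likeness was measured as the root mean square difference between profiles, each centred on its mean on the log2(FPKM + 1) scale, over the 4 libraries. Among the 36 pairs of the 9 genes the closest were Spry4 and Etv4, at 0.12, and the ratio of Spry4 to Etv4 stayed between 0.75 and 0.93 in the 4 libraries. Of 6323 other named loci whose mean reached 10 FPKM, 51 lay closer to Etv4 than Spry4 did and 141 lay closer to Spry4 than Etv4 did, which is 0.807% and 2.23%. Dusp6 was the nearest of the set to Spry2, at 0.27, with 223 loci (3.53%) closer. The nearest of the set to Dusp6 was not Spry2 but Etv5, at 0.25, with 1279 loci (20.2%) closer. Spred1 was the nearest to Fgf4, at 0.26, with 858 loci (13.6%) closer, and Etv5 the nearest to Fgfr1, at 0.33, with 3522 loci (55.7%) closer. The nearest locus to each of the 9 genes was outside the set. The other loci far outnumber the set, so an outside locus was likely to be nearest to any gene. These were Ankrd40 for Fgf4 (0.02), Fbxw5 for Fgfr1 (0.02), Klhl13 for Fgfr2 (0.05), Spryd4 for Spry2 (0.05), Ddah1 for Spry4 (0.02), Sub1 for Spred1 (0.01), Edem1 for Dusp6 (0.02), Rwdd1 for Etv4 (0.01) and Slc25a12 for Etv5 (0.02).

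The rest of the pathway was read from 6 lists with 57 genes, of which 48 passed the same filter and were tested. Of the 48, 0 passed the limma threshold in either direction and 0 had an unadjusted p under 0.05. On the fitted scale 17 lay above 0 and 31 below, with a median log2 fold change of -0.10, which turned to 0.02 without knockdown A. Both knockdown libraries lay below both controls in 10 of the 48 (20.8%) and above both in 4 (8.33%), beside 16.9% and 15% of all loci tested. Against the control range, 25 of the 48 lay outside in knockdown B and 37 in knockdown A, each library taken by itself, beside 58.6% and 79.1% of all loci tested.

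None of the 8 other ligand genes reached the level of Fgf4. Fgf15, an endocrine-type ligand, was the highest at a mean of 10.4 FPKM and stood at 1.97 and 14.8 FPKM in the controls, against 13.9 and 11.0 FPKM in the knockdown pair, so control A alone was low. Fgf17 had a mean of 6.26 FPKM. Fgf5, a marker of primed epiblast, stood at 2.06 and 1.51 FPKM in the controls, against 0 and 2.57 FPKM in the knockdown pair. Fgf2 was listed at 0 in all 4 libraries, and 4 of the 8 were tested.

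Of 9 other receptor and heparan sulfate genes 6 were tested. Fgfrl1, a receptor-like protein without a kinase domain, had the log2 fold change furthest from 0 in the pathway, -1.55 (standard error 0.75), at 6.11 and 3.61 FPKM in the controls, against 0 and 2.80 FPKM in the knockdown pair. Fgfr3 and Fgfr4 had means under 1 FPKM and were not tested. Ext1 and Hs6st1, enzymes that build and sulfate heparan sulfate, were the highest of this list at means of 28.9 and 17.5 FPKM, and their groups overlapped. Ext2, the polymerase partner of Ext1, had a log2 fold change, knockdown over control, of -0.44 (standard error 0.35).

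All 8 adaptor genes were tested. Gab1, a docking protein, was the highest at 68.5 and 55.8 FPKM in the controls, against 51.3 and 46.4 FPKM in the knockdown pair, so its groups did not overlap (log2 fold change -0.34, standard error 0.24). Shc1 followed at a mean of 25.2 FPKM. Sos2, an exchange factor for RAS, stood at -0.40 (standard error 0.51) and Ptpn11, the phosphatase SHP2, at -0.38 (standard error 0.33). Both knockdown libraries lay below both controls in 2 of the 8 (Gab1 and Sos2). They lay above both in 2, Frs2 and Sos1, named after their values were seen, beside 16.9% and 15% of all loci tested. On the fitted scale Frs2 lay at 0.22 and Sos1 at 0.36, each with a standard error of 0.34, and neither was called. Frs2, the docking protein of the FGF receptors, stood at 6.35 and 5.45 FPKM in the controls, against 7.05 and 7.03 FPKM in the knockdown pair. Sos1, the relative of Sos2, stood at 6.56 and 5.68 FPKM in the controls, against 8.32 and 7.90 FPKM in the knockdown pair.

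All 10 genes of RAS, RAF, MEK and ERK were tested, with a median log2 fold change of -0.08. Nras had the largest difference of this list. It stood at 55.0 and 45.5 FPKM in the controls, against 25.6 and 37.4 FPKM in the knockdown pair, with a log2 fold change, knockdown over control, of -0.68 (standard error 0.29, limma adjusted p = 0.918). Hras stood at -0.34 (standard error 0.40) with groups that overlapped.

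Of 12 other inhibitor genes 11 were tested and Spry3 was listed at 0 in all 4 libraries. Dusp4, a nuclear ERK phosphatase, varied widely between the controls, at 73.6 and 15.0 FPKM, with 15.3 and 34.0 FPKM in knockdown libraries. Dusp9, an ERK phosphatase known from stem cells, stood at 32.9 FPKM in each control, against 20.6 and 30.5 FPKM in the knockdown pair (log2 fold change -0.38 with a standard error of 0.29, limma adjusted p = 0.918). Spred3 stood at 1.35 and 1.50 FPKM in the controls, against 0 and 1.34 FPKM in the knockdown pair. Both knockdown libraries lay below both controls in 2 of the 11 (Dusp9 and Spred3). They lay above both in 1, Rasa1, named after its values were seen, beside 16.9% and 15% of all loci tested. Of 10 further targets 9 were tested. The immediate early gene Fos stood at 13.3 and 9.91 FPKM in the controls, against 7.51 and 3.73 FPKM in the knockdown pair, a log2 fold change, knockdown over control, of -0.98 (standard error 0.42, limma adjusted p = 0.918), and was lower in both knockdown libraries than in both controls. Elk3, an ETS factor, stood at -0.97 (standard error 0.67), with an estimated 1.58 fragments in knockdown A. Elk4, another ETS factor, named after its values were seen, had 3.39 and 2.93 FPKM in the controls. It had 10.3 and 3.93 FPKM in the knockdown pair (log2 fold change 0.84, standard error 0.51). Of the 9 targets tested, 2 had both knockdown libraries below both controls and 1 above, beside 16.9% and 15% of all loci tested. Myc and Ier3 were the highest of the targets by mean, at 10.6 and 10.3 FPKM, with log2 fold changes of 0.09 and 0.02.

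**Figure D4:**
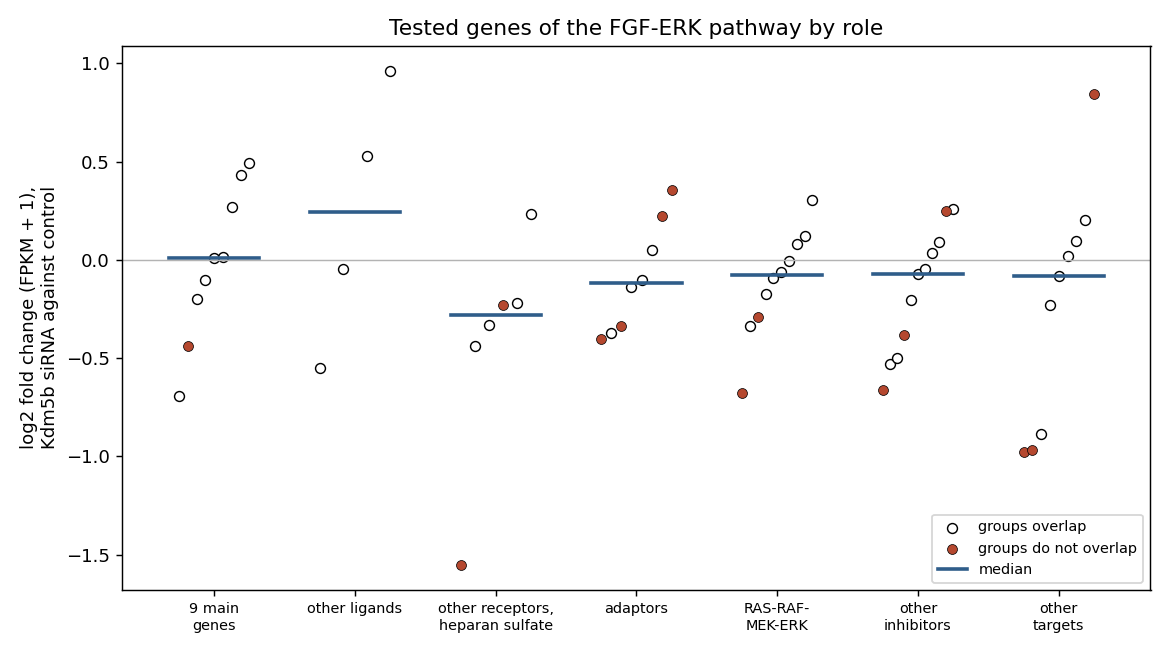
Log2 fold change of each tested gene of the pathway, on the log2(FPKM + 1) scale, by role; filled points are genes with no overlap between the groups, and bars are list medians. The medians of the 9 genes and of all lists but the other ligands (0.24) and the other receptors (-0.28) lie between -0.12 and 0.01.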

How the data were processed

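RNA of 4 libraries was measured by sequencing of strand-marked, ribosomal RNA-depleted total RNA, per the labels' protocols. The authors deposited 1 table of FPKM per locus and library, made with Cufflinks and Cuffdiff on mm9 per the submitters' processing notes. Their versions, the aligner and any use of strand when counting were not given in the sources used here. An exact 0 can be a failed estimate. None of the 9 loci shares its interval with another locus.

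Loci were named from RefSeq identifiers with a GRCm38.p6 table (1 symbol for 23241 loci, several for 189, none for 267), and all 102 list genes were found. The row with the highest mean stood for a symbol. Fragments were estimated from the steps of low values, of which 79.1% to 80.0% lay within 0.15 of a whole number, and give no counting interval. Where a locus has several transcripts their mean length was used.

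Loci whose mean reached 1 FPKM were tested on log2(FPKM + 1) with limma 3.58.1 in R 4.3.3 (group alone, eBayes with trend), and p-values were adjusted over all 11784 loci by Benjamini-Hochberg, called under 0.05, two-sided. This scale understates the change of low genes. The fit was also run on simulated data with large changes and the same spread in all libraries. That run does not measure how the fit does on differences as small, or libraries as uneven, as those here. Tables and figures used matplotlib 3.10.9, pandas 2.3.3 and numpy 2.4.6 in Python 3.11.15.

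The members and lists were chosen with earlier results of these data known. Named genes are the 9, Kdm5b, the 2 with the largest absolute log2 fold change and the 2 highest in each pathway list, and the locus nearest to each of the 9 in profile; some genes that this rule names are not reported here. Alternatives were pseudocounts of 0.1 and 0.01, no filter, a filter at 5 FPKM, upper-quartile and quantile scaling, eBayes without trend, the replicate block, each library left out and summed rows. The counts of genes outside the control range by knockdown library were added after seeing the data.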

Additional observations from a re-analysis of the deposited data

How the results depend on the processing

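No alternative called any of the 9 genes or of the other pathway genes. Of 116 values of single genes under alternatives 104 kept their direction and 12 reversed. No filter, the filter at 5 FPKM, eBayes without trend, the replicate block and summed rows leave each log2 fold change unchanged by construction. Values under those settings could not reverse, so the count of 104 overstates how stable the directions are. Outside the fits with 1 library left out, the reversed values were -0.057 for Fgfr1 and -0.067 for Etv5 with upper-quartile scaling, and -0.016 for Etv5 with quantile normalization. Upper-quartile scaling moved the median of all loci from -0.03 to -0.10. With 1 library left out the log2 fold change ranged from -0.48 to 0.28 for Fgf4, -0.18 to 0.21 for Fgfr1, -0.98 to 0.58 for Fgfr2, -0.10 to 0.97 for Etv4 and -0.17 to 0.19 for Etv5. The median of the 9 genes, 0.01, was -0.067 with upper-quartile scaling, -0.016 with quantile normalization and -0.10 without knockdown A. With 1 library left out, the lone library of that group is assumed to vary like the other group, so p-values rest on 1 pair; the lowest limma adjusted p of any of the 9 was then 0.147, for Spry2 without knockdown B. The loci called numbered 1 with no filter, 7 with the replicate block and 2 when eBayes had no trend, against 4, and 0 to 134 with 1 library left out. The letters A and B pair no libraries by the labels, and the differences between A and B correlated at -0.07 between the groups across loci. Genes outside the control range numbered 7 of the 9 without knockdown B and 4 without knockdown A, against 1 with both libraries required, and 37 and 25 of the other pathway genes against 14; requiring 1 library in place of 2 makes such counts larger by construction. Depth limits Fgfr2 most, at an estimated 23.1 fragments in knockdown A. The filter at 5 FPKM left out Fgfr2, and no symbol of the 9 had more than 1 row to sum.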
